A study of Mus musculus with 6 samples.

Results

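Rpl29, Aste1, Abhd14a, Manf, Parp3, Alas1, Nudt16, Rnf123 and Gpd1l are 9 of the 24841 genes in a single-nucleus RNA table of mouse striatum, and all lie on chromosome 9 near Celsr3. They were selected on their mean value per nucleus, which differed between wild type and Celsr3 heterozygous libraries, and on lying within about 120 expressed genes of Celsr3. The difference between the genotypes is therefore a property they were picked for, and it is given below as a description without a test. Rpl29, Aste1, Abhd14a and Manf were lower in the heterozygous libraries, and Parp3, Alas1, Nudt16, Rnf123 and Gpd1l were higher.

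The study measured nuclear RNA from flash-frozen dissected striatum of wild type and Celsr3 heterozygous mice, with 3 libraries labelled as biological replicates in each group. Celsr3 encodes an atypical cadherin of the adhesion G protein-coupled receptor family that guides axons. The sources used here give no strain, sex, age or litter for either group, do not describe how the Celsr3 allele was made, and do not say whether a library holds 1 animal or several. Carrying the Celsr3 allele cannot be told apart in this design from carrying neighbouring chromosome 9 DNA inherited with it.

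Each gene's level is the mean deposited value per nucleus in a library, taken to be corrected for depth, and a log2 difference is the mean of log2(level + 0.01) in the heterozygous group minus that in the wild type group. The libraries held 7735 to 8875 nuclei, of which 48016 in all were kept after removal of likely doublets, and 274 of 48559 cell barcodes occurred in more than 1 library. D1 and D2 medium spiny neuron-like (MSN-like) nuclei, the principal striatal neurons, were found from their markers in every library. Composition varied: glutamatergic neuron-like nuclei numbered 205 to 1512 per library. Wild type replicate 1 stood apart in having the fewest genes per nucleus, with a median of 2456 against 2843 to 3011 in the others, and the highest summed ribosomal protein level. Of all genes tested, the median log2 difference was 0.07, or 0.01 when the libraries were scaled by size factors. The number of libraries, the number of nuclei in small classes and the low level of some genes limit the precision, and the raw counts behind the deposited values were not used here.

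The 9 genes do not form a pathway. Rpl29 is a protein of the large ribosomal subunit. Parp3 is an ADP-ribosyltransferase that responds to DNA breaks, and Aste1 carries an XPG-like nuclease domain and is linked to the repair of double-strand breaks. Alas1 catalyses the rate-limiting step of haem synthesis outside red blood cells. Nudt16 is a Nudix hydrolase that acts on inosine nucleotides and RNA caps, Gpd1l is related to glycerol 3-phosphate dehydrogenase, and Abhd14a has an alpha/beta hydrolase fold. Manf is a secreted protein of the endoplasmic reticulum that is induced when protein folding there is disturbed and that has neurotrophic activity. Rnf123 is a ubiquitin ligase whose known substrates include the cell-cycle inhibitor p27 Kip1.

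RefSeq promoter windows, running from 250 bases before to 50 bases after a gene's start in RefSeq, were matched by symbol for 7 of the 9 genes, and Rpl29 and Manf had none. For Alas1, Rnf123 and Aste1 the windows lie inside the gene spans of the GENCODE annotation given further below, so the 2 annotations differ in the start. Those of Parp3 and Abhd14a are printed because these genes lie close together yet differed in opposite directions, and those of Alas1 and Rnf123 because they share a motif with them. Each is given 5′ to 3′ on the minus strand of build GRCm38.p6: chr9:106476900-106477199 for Parp3, chr9:106447629-106447928 for Abhd14a, chr9:106247905-106248204 for Alas1 and chr9:108079252-108079551 for Rnf123. Capitals mark CCAAT, read on either strand, and the NRF1-type motif, which is GCGC, any base, then TGCGC, also on either strand.
Parp3: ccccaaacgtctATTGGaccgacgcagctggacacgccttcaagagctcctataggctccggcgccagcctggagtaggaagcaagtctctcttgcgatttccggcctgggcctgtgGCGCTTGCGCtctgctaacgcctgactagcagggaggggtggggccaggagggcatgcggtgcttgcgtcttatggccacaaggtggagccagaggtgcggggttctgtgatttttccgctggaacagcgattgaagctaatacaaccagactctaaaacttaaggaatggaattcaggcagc
Abhd14a: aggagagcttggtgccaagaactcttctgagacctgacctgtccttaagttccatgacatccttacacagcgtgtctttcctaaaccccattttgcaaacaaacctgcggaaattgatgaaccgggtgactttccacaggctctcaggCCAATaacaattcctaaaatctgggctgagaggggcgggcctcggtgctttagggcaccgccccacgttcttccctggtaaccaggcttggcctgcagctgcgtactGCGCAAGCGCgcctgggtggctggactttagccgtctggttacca
Alas1: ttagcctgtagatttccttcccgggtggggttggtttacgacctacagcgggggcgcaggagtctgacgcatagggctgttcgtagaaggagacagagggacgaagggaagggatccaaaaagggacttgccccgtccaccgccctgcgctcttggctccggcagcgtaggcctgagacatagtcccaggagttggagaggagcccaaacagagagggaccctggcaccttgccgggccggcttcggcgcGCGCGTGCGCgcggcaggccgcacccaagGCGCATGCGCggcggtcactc
Rnf123: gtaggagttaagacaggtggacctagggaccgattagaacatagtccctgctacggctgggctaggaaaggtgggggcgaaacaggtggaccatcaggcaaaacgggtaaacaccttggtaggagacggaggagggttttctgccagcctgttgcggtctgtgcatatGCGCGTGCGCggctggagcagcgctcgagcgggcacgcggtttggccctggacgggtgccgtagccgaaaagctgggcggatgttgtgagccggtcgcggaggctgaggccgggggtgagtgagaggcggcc
Counted from 1 at the 5′ end of the window, the NRF1-type motif began at base 118 in Parp3, at base 256 in Abhd14a, at bases 251 and 280 in Alas1 and at base 169 in Rnf123. Alas1 had a further, overlapping window downstream that holds the same motif matches. Counting both Alas1 windows, 5 of the 8 windows of the 7 genes held the motif, against 4.59% of all 32817 windows in the RefSeq table. The windows that held it had 54.7% to 73.3% G and C bases, and the 32817 were not matched for this. Parp3, Alas1 and Rnf123 were higher in heterozygous libraries and Abhd14a was lower, so the motif did not go with 1 direction. CCAAT occurred in Parp3, Abhd14a, Nudt16 and Gpd1l and in 37.4% of all windows. No window of the 7 genes held TATAAA (13.6% of all windows), the cyclic AMP element, TGACG followed by TCA (1.79%), or the unfolded protein response element, TGACG followed by TGG (0.68%). The longer endoplasmic reticulum stress element, CCAAT, 9 bases and CCACG, was also not in them and occurred in 0.12% of all windows. These letter matches say nothing of whether a factor binds there.

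Celsr3, the gene targeted in the mice, had levels of 0.0746, 0.0999 and 0.108 in wild type replicates 1 to 3 and 0.0613, 0.0694 and 0.0645 in heterozygous replicates 1 to 3. The groups did not overlap, and the level in heterozygous libraries averaged 69.0% of that in wild type (0.0942 ± 0.0175 to 0.0651 ± 0.00404, SD, n = 3 each; log2 difference -0.46, or -0.23 with a pseudocount of 0.1). Celsr3 passed the filter on low values in 3 classes, D1 MSN-like (56.7% of wild type), D2 MSN-like (61.8%) and glutamatergic neuron-like nuclei (53.3%), without overlap in any of them.

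Among the 4 genes that were lower, Rpl29 had the largest difference. Wild type replicates 1 to 3 had levels of 0.534, 0.336 and 0.386, and heterozygous replicates 1 to 3 had 0.188, 0.165 and 0.200. Every heterozygous library lay below every wild type library, and wild type replicate 1 was the highest. The means were 0.419 ± 0.103 and 0.185 ± 0.0177 (SD, n = 3 each), so that the heterozygous mean was 44.1% of wild type, a log2 difference of -1.12, or -0.93 without wild type replicate 1.

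Rpl29 was also set against the 26 other tested genes of its kind on a list of large-subunit ribosomal proteins, because their summed level varied between libraries. Wild type replicates summed to 25.4, 14.97 and 16.2 and heterozygous replicates to 15.2, 14.7 and 18.2, so the groups overlapped. Per 1000 of the summed level, Rpl29 stood at 21.0, 22.5 and 23.9 in wild type and at 12.4, 11.2 and 10.98 in heterozygous libraries. On this relative scale, chosen after the data were seen, wild type replicate 1 no longer stood apart, the mean fell from 22.5 ± 1.45 to 11.5 ± 0.765, and the heterozygous mean was 51.3% of wild type (log2 difference -0.96). All 26 other genes had a lower heterozygous mean, also with size-factor scaling, with a median log2 difference of -0.18, but in none of them were the groups apart. Their direction rested on wild type replicate 1: without it 7 were lower and 19 higher, the median was 0.04, and the mean summed level was 15.6 for the remaining wild type libraries against 16.0 for the heterozygous ones. The largest of these differences were those of Rpl9 (-0.26), Rpl19 (-0.26) and Rpl13 (-0.24). Of 3 annotated pseudogenes whose symbols begin with Rpl29-ps, 0 were listed in the table. Copies annotated under other names were not looked for, and whether reads of such copies were counted for Rpl29 was not tested.

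Aste1 stood at 0.245, 0.239 and 0.253 in wild type and at 0.185, 0.153 and 0.142 in heterozygous libraries. The wild type libraries were close together and all above the heterozygous ones, whose mean was 65.0% of wild type (0.246 ± 0.00669 to 0.160 ± 0.0225, SD, n = 3 each; log2 difference -0.60). Aste1 shares 8691 bases with Atp2c1 on the opposite strand, and Atp2c1, a Golgi calcium pump, overlapped between the groups with a log2 difference of 0.04. Abhd14a stood at 0.126, 0.128 and 0.132 in wild type and at 0.0850, 0.0878 and 0.0935 in heterozygous libraries. Its spread within each group was small beside the gap between them, and the heterozygous mean was 69.1% of wild type (0.128 ± 0.00320 to 0.0888 ± 0.00435; log2 difference -0.49). Its neighbour Abhd14b, which shares 220 bases with it on the other strand, overlapped between the groups at a log2 difference of 0.09.

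Manf stood at 0.632, 0.607 and 0.620 in wild type and at 0.531, 0.496 and 0.543 in heterozygous libraries. Without size-factor scaling this was the smallest difference of the 9, a heterozygous mean of 84.5% of wild type (0.620 ± 0.0126 to 0.523 ± 0.0246, SD, n = 3 each; log2 difference -0.24), and the groups did not overlap. The smallest one depended on the setting. With size-factor scaling it was that of Gpd1l (0.25, Manf -0.30), and with a pseudocount of 0.1 that of Nudt16 (0.11, Manf -0.21). Measured as the share of nuclei with a value above 0, the log2 difference of Manf was -0.14. Manf shares 42681 bases with Dcaf1 on the opposite strand, whose log2 difference was 0.12 with overlapping groups, and contains Rbm15b on its own strand, which was higher in all heterozygous libraries (0.16). The sources used here do not say whether counting used strand, so reads of overlapping genes on opposite strands may not be separable.

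Of the 5 genes that were higher, Parp3 had the largest relative difference and the lowest level. It stood at 0.0222, 0.0216 and 0.0213 in wild type and at 0.0340, 0.0314 and 0.0411 in heterozygous libraries. The wild type libraries were nearly level with one another, just above the minimum mean of 0.02, and the heterozygous mean was 164% of wild type (0.0217 ± 0.000450 to 0.0355 ± 0.00502, SD, n = 3 each; log2 difference 0.52). Parp3 was above 0 in 1.84% to 3.79% of nuclei per library, and a pseudocount of 0.1 in place of 0.01 reduced its log2 difference to 0.15. Rrp9, a nucleolar protein gene that shares 987 bases with Parp3 on the other strand, had a log2 difference of -0.18 with overlapping groups.

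Alas1 stood at 0.117, 0.142 and 0.142 in wild type and at 0.185, 0.165 and 0.169 in heterozygous libraries. Wild type replicate 1 was the lowest, heterozygous replicate 1 the highest, and the heterozygous mean was 129% of wild type (0.134 ± 0.0143 to 0.173 ± 0.0107, SD, n = 3 each; log2 difference 0.35). Nudt16, another gene of low level, stood at 0.0309, 0.0282 and 0.0286 in wild type and at 0.0377, 0.0392 and 0.0419 in heterozygous libraries. The groups were apart by more than the spread within either, at 135% of wild type (0.0292 ± 0.00144 to 0.0396 ± 0.00215; log2 difference 0.34), although with a pseudocount of 0.1 the log2 difference was 0.11.

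Rnf123 stood at 0.136, 0.151 and 0.163 in wild type and at 0.195, 0.184 and 0.189 in heterozygous libraries. Gpd1l stood at 0.0986, 0.0956 and 0.111 in wild type and at 0.125, 0.128 and 0.131 in heterozygous libraries. Both were higher in every heterozygous library, Rnf123 at 126% of wild type (0.150 ± 0.0136 to 0.189 ± 0.00533, SD, n = 3 each; log2 difference 0.32) and Gpd1l also at 126% (0.102 ± 0.00792 to 0.128 ± 0.00283; log2 difference 0.31). Rnf123 overlaps 4 genes listed in the table, of which Gmppb, a gene of sugar-nucleotide synthesis, passed the filter and overlapped between the groups (log2 difference 0.09).

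Across all nuclei, all 9 genes therefore had groups that did not overlap, 4 lower and 5 higher, which the way they were picked favours. Over all 14399 genes that passed the filter on low values, 4.43% were lower and 14.8% higher in every heterozygous library. With size-factor scaling these shares were 6.91% and 6.10%, and the 9 genes kept their count of 4 lower and 5 higher. limma, adjusting over all of these genes by Benjamini-Hochberg, called 0 of them (0%) at an adjusted p under 0.05, and 1429 had an unadjusted p under 0.05.

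**Figure D1:**
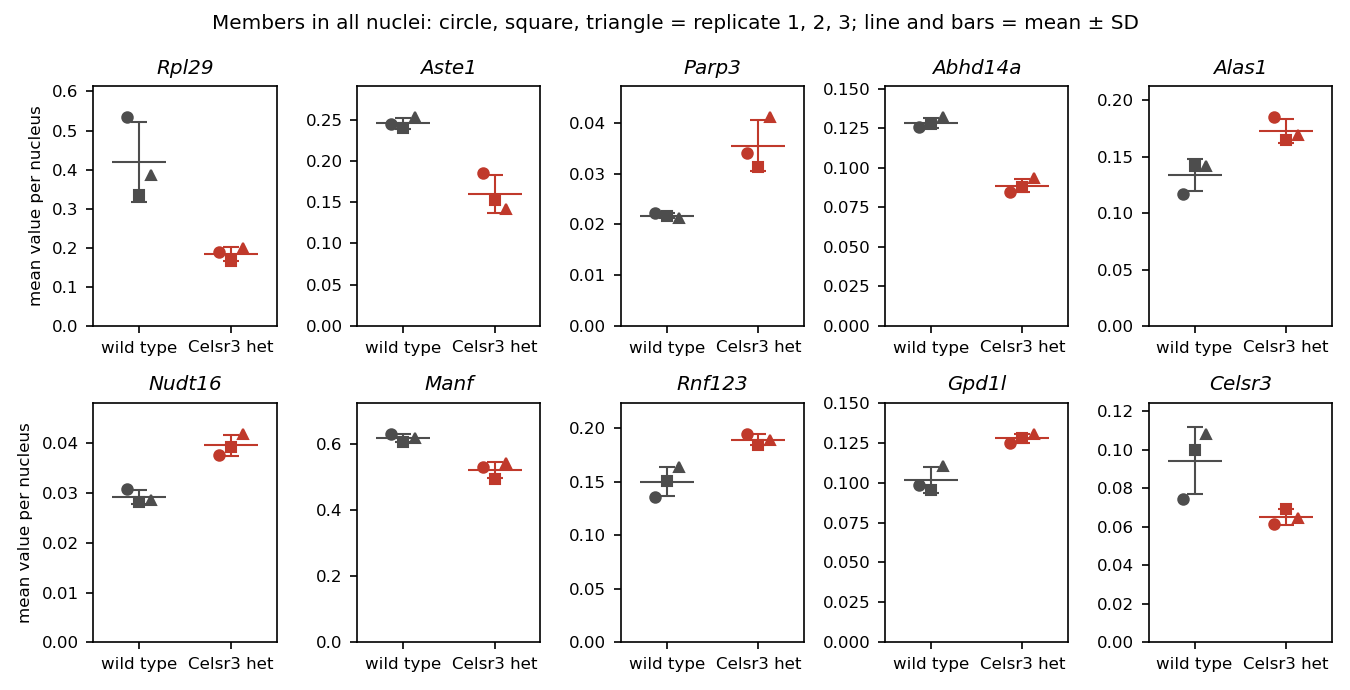
Mean value per nucleus (y axis, linear, from 0) of the 9 genes and Celsr3 in all nuclei of each library, with wild type in dark grey and Celsr3 heterozygous in red. Symbols are replicates 1 to 3, and the line and bars are the mean ± SD of 3 libraries. No panel has overlapping groups, and Rpl29 in wild type replicate 1 lies above the other libraries at 0.534.

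On chromosome 9 of GRCm38 (GENCODE vM21 annotation) 8 of the 9 genes lie before Celsr3 and 1 lies after it. Celsr3 itself spans chr9:108826320-108852969 on the plus strand. Rnf123, at chr9:108051534-108083346 on the minus strand, is the nearest at 0.775 Mb and 26 tested genes away. Gpd1l, at chr9:114899341-114933987 on the minus strand, is the only one beyond Celsr3, at 6.07 Mb and 47 tested genes. Nudt16, at chr9:105128903-105131824 on the minus strand, is the farthest by gene order, 74 tested genes and 3.70 Mb away.

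Of the others, 4 fall within 2.36 to 2.59 Mb of Celsr3. These are Alas1 (chr9:106233455-106248654, minus strand), Rpl29 (chr9:106429454-106431568, plus strand), Abhd14a (chr9:106440051-106447678, minus strand) and Parp3 (chr9:106470322-106476949, minus strand). Manf (chr9:106838312-106891979, minus strand) lies 1.99 Mb and Aste1 (chr9:105395392-105412229, plus strand) 3.43 Mb away. Genes that were lower and higher alternate along this stretch: Nudt16 was higher, Aste1 lower, Alas1 higher, Rpl29 and Abhd14a lower, Parp3 higher, Manf lower and Rnf123 higher.

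Tested genes lying between them did not all share the difference. Between Rpl29 and Parp3, Acy1 (log2 difference -0.16), Abhd14b (0.09), Pcbp4 (0.16) and Gpr62 (-0.09) had overlapping groups, as did Dusp7 (-0.04) just before Rpl29 and Rrp9 (-0.18) just after Parp3. Some neighbours outside the list did have groups apart. Poc1a, a centriolar protein gene between Alas1 and Rpl29, was lower (-0.33), as was the antisense gene Gm29123 (-0.51) beside it, while Wdr82 (0.25) and Twf2 (0.27), just before Alas1, were higher. These neighbours are named after their values were seen, for their place beside the 9.

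Among the 231 other tested genes within 120 tested genes of Celsr3 on each side, the median log2 difference was 0.07, and with size-factor scaling it was 0.01, in each case the same to 2 decimals as over all genes. Of them 13 (5.63%) were lower and 38 (16.5%) higher in every heterozygous library, against 3.86% and 14.1% of the 596 tested genes on the rest of the chromosome. With size-factor scaling 24 (10.4%) were lower and 14 (6.06%) higher, against 7.05% and 4.36% on the rest of the chromosome. By distance, groups were apart for 17.1% of the 41 genes within 1 Mb of Celsr3, 32.4% of 34 at 1 to 2 Mb, 40% of 25 at 2 to 3 Mb and 27.3% of 11 at 3 to 4 Mb. The share was 26.7% of 30 at 4 to 6 Mb, 17.6% of 34 at 6 to 10 Mb, 22.6% of 115 at 10 to 20 Mb, 17.7% of 113 at 20 to 40 Mb and 17.6% of 433 beyond 40 Mb. Without the 9 genes, groups were apart for 6 of 40 genes within 1 Mb, 10 of 33 at 1 to 2 Mb, 6 of 21 at 2 to 3 Mb, 1 of 9 at 3 to 4 Mb and 5 of 33 at 6 to 10 Mb. These bands use the same contrast that picked the 9 genes and were not tested.

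The list does not hold every gene of the region with such a difference. In the same window 51 of the 231 genes outside it had groups apart, 5.63% lower and 16.5% higher. Over all genes tested the shares were 4.43% and 14.8%. With size-factor scaling they were 10.4% lower and 6.06% higher in the window, against 6.91% and 6.10% over all genes. Of the 51, 25 had an absolute log2 difference, before such scaling, at least as large as that of Manf. That count was not made over all genes, so nothing is read from it. An absolute log2 difference over 0.5, with groups apart or not, was held by 2.60% of the 231. It was held by 1.17% on the rest of the chromosome and 1.60% of all genes. With size-factor scaling these shares were 3.46%, 2.52% and 1.90%. They were not tested. Among the 51, the 5 largest differences were those of Gm47134 (-0.85), 5830418P13Rik (-0.81), Stac (0.77), Gm38134 (0.56) and Gm47136 (-0.52). Gm47134 and Gm47136 are long noncoding genes, 5830418P13Rik and Gm38134 are antisense genes, and Stac encodes an adaptor protein of muscle and neurons. Stac was among the genes most raised in an unnamed cluster with 96.5% of its nuclei from 1 library. Likewise, 5830418P13Rik was among those most raised in committed oligodendrocyte precursor-like nuclei, which numbered 31 to 105 per library. Whether the number of such nuclei bears on these 2 differences was not tested. Ranked by absolute log2 difference without size-factor scaling among the 240 genes of the window, Rpl29 was number 1, Aste1 5, Parp3 8, Abhd14a 12, Alas1 25, Nudt16 28, Rnf123 34, Gpd1l 36 and Manf 58.

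**Figure D2:**
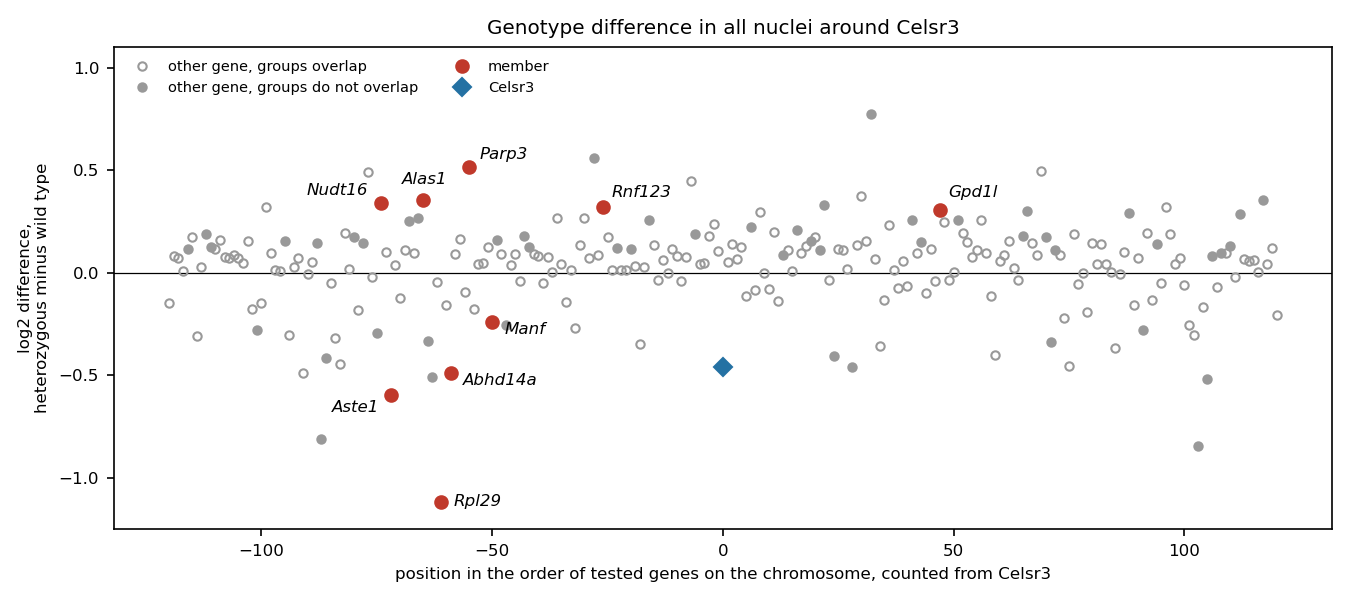
Log2 difference in all nuclei (y axis, heterozygous minus wild type) of the tested genes on the chromosome of Celsr3, in their order counted from Celsr3 (x axis, 120 on each side). Red points are the 9 genes, the blue diamond is Celsr3, and filled grey points are other genes whose groups did not overlap. Of the 9, 8 lie to the left of Celsr3, higher and lower ones intermixed, with Rpl29 lowest at -1.12.

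The next question was whether the differences were present within cell classes, since all nuclei mix them. The same contrast chose the genes, so these values are also a description. Of 64 pairs of a gene and a class that passed the filter, 62 had the direction seen in all nuclei. The all-nuclei value is made up of these classes, so this agreement is partly fixed. The same share was not computed over all genes, and nothing is read from the count. In 9 of the 64 the filter was passed through 1 genotype group only, and nothing is read from these. Through the heterozygous group passed Parp3 in D1 MSN-like, Alas1 and Rnf123 in eccentric MSN-like and Nudt16 in glutamatergic neuron-like nuclei. Through the wild type group passed Rpl29 in GABAergic interneuron-like and OPC-like nuclei and Manf in committed oligodendrocyte precursor-like nuclei. Aste1 and Gpd1l in microglia-like nuclei also passed through the wild type group. The exceptions in direction were Alas1 in endothelial-like nuclei (0.778 ± 0.212 to 0.624 ± 0.223) and Gpd1l in microglia-like nuclei (0.154 ± 0.0129 to 0.129 ± 0.0512), each with overlapping groups.

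Rpl29 was lower in all 11 classes in which it passed, and the groups were apart in 10. Among the 11 are the GABAergic interneuron-like and OPC-like classes, where Rpl29 passed the filter through the wild type group only. Its log2 difference ran from -0.85 in glutamatergic neuron-like to -1.37 in oligodendrocyte-like nuclei. In oligodendrocyte-like nuclei it stood at 0.602, 0.380 and 0.431 in wild type and at 0.187, 0.163 and 0.170 in heterozygous libraries, a heterozygous mean of 36.8% of wild type. The exception was the OPC-like class (oligodendrocyte precursors), where heterozygous replicate 1, with 27 nuclei, overlapped the wild type range.

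Aste1 was lower with groups apart in all 8 classes in which it passed, from -0.49 in D1 MSN-like to -1.10 in microglia-like nuclei. In microglia-like nuclei, where it passed the filter through the wild type group only, it stood at 0.292, 0.311 and 0.193 in wild type and at 0.117, 0.109 and 0.122 in heterozygous libraries. Abhd14a was lower with groups apart in all 5 of its classes, from -0.40 in astrocyte-like to -0.66 in D2 MSN-like nuclei. Manf passed in 12 classes and was lower in each, with groups apart in 6, from -0.14 in oligodendrocyte-like to -0.58 in committed oligodendrocyte precursor-like nuclei, where the groups overlapped and Manf passed the filter through the wild type group only.

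Parp3 passed the filter in 3 classes. In D1 MSN-like nuclei it stood at 0.00923, 0.0116 and 0.0239 in wild type and at 0.0415, 0.0487 and 0.0712 in heterozygous libraries. The groups were apart, with a heterozygous mean of 361% of wild type (log2 difference 1.37), but the wild type mean of 0.0149 was below the filter, so it passed through the heterozygous group. In D2 MSN-like nuclei the wild type values of 0.0297, 0.0365 and 0.0354 lay below the heterozygous values of 0.0714, 0.0622 and 0.0944, a heterozygous mean of 224% of wild type (log2 difference 0.96). In astrocyte-like nuclei the groups overlapped, with means of 0.0400 ± 0.00843 and 0.0444 ± 0.00787 (log2 difference 0.13). Parp3 did not pass the filter over the 8 classes compared. Without the filter Parp3 entered the F test for a genotype difference that varies between these classes, and 0 of the 9 genes were called. A comparison of astrocyte-like with MSN-like nuclei alone is not given here.

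Alas1 was higher in 7 of 8 classes and its groups were apart in 6. Among the 6 is the eccentric MSN-like class, where Alas1 passed the filter through the heterozygous group only. The largest of the 6 differences was in astrocyte-like nuclei, at 0.0553, 0.0999 and 0.0592 in wild type and 0.129, 0.101 and 0.123 in heterozygous libraries (log2 difference 0.69). Nudt16 was higher in its 4 classes, with groups apart in 3, and ranged from 0.11 in glutamatergic neuron-like to 0.42 in D1 MSN-like nuclei. In glutamatergic neuron-like nuclei Nudt16 passed the filter through the heterozygous group only. Rnf123 was higher in all 7 of its classes, with groups apart in 3, the D1 MSN-like, D2 MSN-like and astrocyte-like classes. Among the 7 is the eccentric MSN-like class, where Rnf123 passed the filter through the heterozygous group only. Gpd1l was higher in 5 of 6 classes, with groups apart in 2. In microglia-like nuclei, the class of the 6 with a lower heterozygous mean, Gpd1l passed the filter through the wild type group only. Its largest log2 difference was in oligodendrocyte-like nuclei (0.59), where levels of 0.0576, 0.0384 and 0.0480 in wild type stood below 0.0744, 0.0733 and 0.0824.

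Per class, these counts stand beside the following background. In D1 MSN-like nuclei all 9 genes passed, 4 lower and 5 higher with groups apart, where 5.08% of all genes were lower and 11.6% higher. In D2 MSN-like nuclei all 9 passed, 4 lower and 4 higher with groups apart (Gpd1l overlapped), where 5.55% of all genes were lower and 9.25% higher. Of 8 that passed in glutamatergic neuron-like nuclei 4 were lower and 0 higher with groups apart, against 6.17% and 5.52% of all genes. Of 8 in astrocyte-like nuclei 3 were lower and 2 higher, against 4.89% and 7.29%. Of 8 in oligodendrocyte-like nuclei 3 were lower and 3 higher, against 4.24% and 6.21%.

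Fewer of the genes passed in the smaller classes. Of 5 in GABAergic interneuron-like nuclei 3 were lower and 1 higher with groups apart, against 6.46% and 5.68% of all genes there. Of 4 in microglia-like nuclei 3 were lower and 0 higher, against 5.01% and 6.29%. Of 3 in endothelial-like nuclei 1, Rpl29, was lower and 0 higher, against 3.72% and 5.31%. In eccentric MSN-like nuclei, a minor medium spiny type, 3 of 5 were lower and 1 higher, against 5.27% and 5.29%. In neuroblast-like nuclei 1 of 2, Rpl29, was lower and 0 higher, against 5.07% and 4.49%. In OPC-like nuclei 0 of 2 (3.15% lower and 6.67% higher over all genes) and in committed oligodendrocyte precursor-like nuclei 0 of 1 (5.69% and 6.04%) had groups apart. These counts include the pairs that passed the filter through 1 genotype group only. Because the genotype contrast chose the genes, nothing is read from these comparisons with the background.

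**Figure D3:**
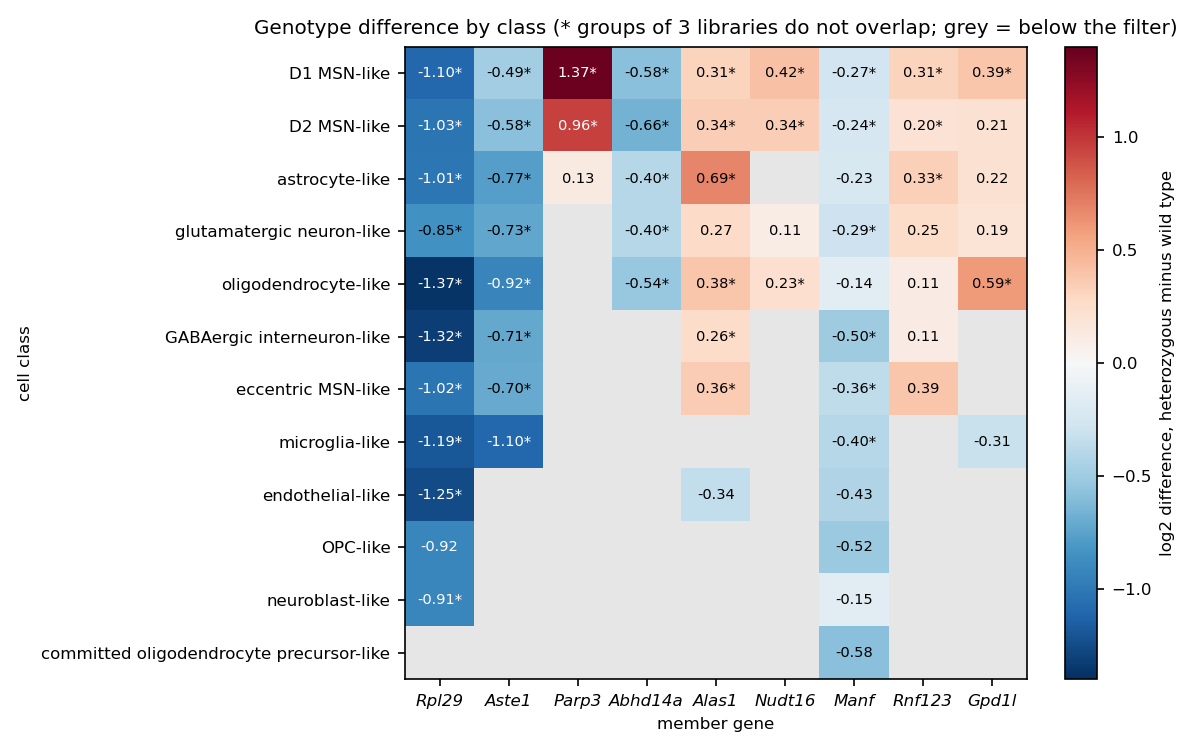
Log2 difference (colour and number, heterozygous minus wild type) of each gene (x axis) in each class in which any of them passed the filter (y axis), blue for lower and red for higher. An asterisk marks groups of 3 libraries that did not overlap, and grey marks values below the filter. The columns of Rpl29, Aste1, Abhd14a and Manf are blue throughout, and the 2 values against their column are Alas1 in endothelial-like (-0.34) and Gpd1l in microglia-like nuclei (-0.31).

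Whether the genotype difference itself varied between classes was not used to pick the genes and could be tested. For the 8 classes that had 100 or more nuclei in each library, limma on the library means with library as a block called 16 of 12181 genes (0.131%) by an F test at an adjusted p under 0.05. Of the 7 of the 9 that passed the filter there, 0 were called. Before adjustment 963 of the 12181 genes and 0 of these 7 had a p under 0.05, the lowest of the 7 being that of Alas1 (unadjusted p = 0.067, and 0.70 after adjustment, by limma's model over all genes). Parp3 and Nudt16 did not pass, and without the filter, where all 9 genes entered, 0 of them were called. In the same model the contrast of D2 with D1 MSN-like nuclei called 0 genes (0%), and only 10 had an unadjusted p under 0.05, with the spread taken over all 8 classes, small ones included.

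A model of these D1 and D2 classes alone, added after the data were seen, took in all 9 genes and called 3 of 13119 genes (0.0229%), which were Zfp804b, Foxp2 and Inpp4b, named here after their values were seen. None of the 9 was called. The difference in D2 minus that in D1 was 0.07 for Rpl29 (95% interval -0.12 to 0.26), -0.09 for Aste1 (-0.31 to 0.13) and -0.08 for Abhd14a (-0.32 to 0.17). It was 0.04 for Manf (-0.09 to 0.16), whose interval was the narrowest of the 9. Parp3 had the widest interval and the largest value, -0.42 (-0.84 to 0.01; adjusted p = 0.94 by limma), but Parp3 in D1 nuclei passed the filter only through the heterozygous group, where it is high, so nothing is read from this value. The other 4 genes lay between -0.18 for Gpd1l (-0.43 to 0.07) and 0.03 for Alas1 (-0.19 to 0.25). These intervals do not show that the classes respond alike.

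The level of the genes across classes was independent of how they were picked. The members and Celsr3 were left out of the genes used to cluster the nuclei. All 7 that passed the filter over the 8 classes differed in level between classes by limma's F test, but so did 99.8% of the 12181 genes tested, and the result is not particular to them. Their orders of level are described below, as means over all 6 libraries, with adjusted p-values from contrasts of neighbouring classes in the same model. Classes are ordered by the mean of the log2 levels, which can differ from the order of the means where those are close.

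Rpl29 was highest in endothelial-like nuclei, at 0.929 ± 0.483 (SD, n = 6), and differed there from the next class, microglia-like nuclei at 0.359 ± 0.196 (adjusted p = 1.8e-15 by limma). Microglia-like, astrocyte-like and oligodendrocyte-like nuclei followed with no neighbours separated by the test, and oligodendrocyte-like nuclei (0.322 ± 0.179) were above D2 MSN-like nuclei (0.247 ± 0.104; adjusted p = 0.0094 by limma). Among the 4 neuronal classes at the bottom, neighbours were not separated by the test, down to 0.221 ± 0.0923 in glutamatergic neuron-like nuclei. Much of each SD is the genotype difference itself, since both genotypes enter the mean.

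Alas1 was likewise highest in endothelial-like nuclei, at 0.701 ± 0.212 (SD, n = 6), against 0.205 ± 0.0377 in glutamatergic neuron-like nuclei, the next class (adjusted p = 6.2e-14 by limma). From that class through the interneuron-like, D1 and D2 classes, neighbours in the order were not separated by the test. D2 MSN-like nuclei (0.172 ± 0.0268) were above microglia-like nuclei (0.115 ± 0.0313; adjusted p = 0.00083 by limma), and oligodendrocyte-like nuclei were lowest at 0.0631 ± 0.0123. Endothelial-like nuclei were therefore both the class with the most Alas1 and the class in which its genotype means went the other way, with 128 to 177 nuclei per library behind that value.

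Aste1, Abhd14a, Manf and Rnf123 were highest in neuronal classes. Aste1 was highest in GABAergic interneuron-like nuclei (0.287 ± 0.0870, SD, n = 6), was not separated between neighbouring neuronal classes, and stood at 0.102 ± 0.0364 in astrocyte-like nuclei. Abhd14a ran from 0.156 ± 0.0382 in D1 MSN-like to 0.0511 ± 0.0124 in microglia-like nuclei, and of its neighbouring classes only astrocyte-like and microglia-like nuclei differed (adjusted p = 0.0185 by limma). Manf had the flattest profile of the 7 by its F value, from 0.689 ± 0.0923 in D1 MSN-like to 0.445 ± 0.108 in endothelial-like nuclei. Of its neighbouring classes, GABAergic interneuron-like and glutamatergic neuron-like nuclei differed (adjusted p = 0.034 by limma).

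Rnf123 stood at 0.309 ± 0.0273 (SD, n = 6) in GABAergic interneuron-like and 0.302 ± 0.0409 in glutamatergic neuron-like nuclei, which were not separated by the test. Both lay above D1 MSN-like nuclei at 0.202 ± 0.0270, the step down being from the glutamatergic class (adjusted p = 0.00052 by limma). A second step separated D2 MSN-like nuclei (0.188 ± 0.0205) from microglia-like nuclei (0.117 ± 0.0225; adjusted p = 2.5e-05 by limma). Gpd1l was highest in glutamatergic neuron-like nuclei (0.194 ± 0.0240), above GABAergic interneuron-like nuclei (0.139 ± 0.0207; adjusted p = 0.0187 by limma), and lowest in oligodendrocyte-like nuclei (0.0623 ± 0.0171). For Gpd1l the interneuron-like class was not separated from microglia-like nuclei at 0.141 ± 0.0362, nor these from D1 MSN-like nuclei at 0.138 ± 0.0267.

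**Figure D4:**
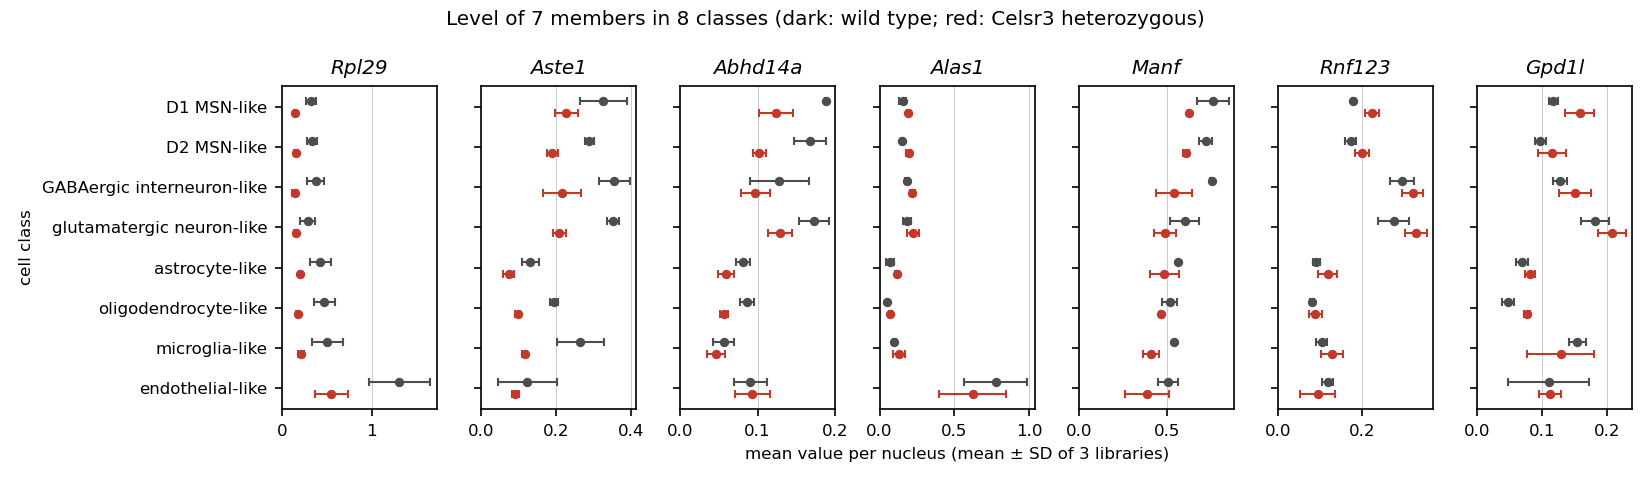
Mean value per nucleus (x axis, linear, from 0, scaled separately for each gene) of the 7 genes that passed the filter in 8 classes (y axis). Dark points are wild type, red points Celsr3 heterozygous, and bars the SD of 3 libraries. Rpl29 and Alas1 are highest in endothelial-like nuclei, and the other 5 are highest in a neuronal class.

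For each of these 7 genes the 2 tested genes with the most similar profile were found by Pearson's r of the mean log2 level over the 8 classes, whose values come from the same libraries. For Rpl29 these were Myl6 (r = 0.997), a myosin light chain, and Rpl15 (r = 0.995), another large-subunit ribosomal protein. Aste1 was closest to Clgn (0.997) and Zbed5 (0.987), Abhd14a to Kat2a (0.997) and 9130401M01Rik (0.991), and Alas1 to Sdhaf4 (0.985) and Ccny (0.984). Manf was closest to Cul5 (0.981) and Nfx1 (0.979), Rnf123 to Zswim3 and Hagh (each 0.99), and Gpd1l to Zfp513 (0.992) and Jpt1 (0.970). Among the 7 themselves, Aste1 and Rnf123 were the most alike (r = 0.87), and Rpl29 ran against Aste1 (-0.76) and Manf (-0.74). With 12181 genes compared over 8 points, such values carry no test.

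Partner genes of the 9 in their known processes were then described, from lists that leave the 9 out, in the genotype contrast over all nuclei. limma called 0 genes in each list. Counts of genes with groups apart are to be read beside the 4.43% lower and 14.8% higher over all genes, or 6.91% and 6.10% with size-factor scaling. Of 11 tested genes of haem synthesis and breakdown, 1 was lower and 0 higher with groups apart, and the median log2 difference was 0.03 (-0.03 with size-factor scaling, where Hmox2 was lower too) against 0.07 over all genes (0.01). The gene that was lower is Alas2, the erythroid counterpart of Alas1, which went from 0.196 ± 0.0153 in wild type to 0.152 ± 0.0173 (SD, n = 3 each; log2 difference -0.35), opposite in sign to Alas1.

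Of 15 genes of endoplasmic reticulum stress, the setting of Manf, 0 were lower and 1 higher with groups apart, at a median of -0.01. The gene is Atf4, a transcription factor of the stress response, at 0.121 ± 0.0114 and 0.143 ± 0.0151 (log2 difference 0.22), and with size-factor scaling its groups overlapped. Of 11 genes of double-strand break repair, 1 was lower and 3 higher, and with size-factor scaling 1 lower and 0 higher. The lower one on both scales was Xrcc6, which encodes the Ku70 subunit of the end-binding complex, with a mean of 1.17 ± 0.0452 in wild type against 0.846 ± 0.0591 (SD, n = 3 each; log2 difference -0.47). The 3 that were higher were Mad2l2 (0.25) and Shld2 (0.18), both of the shieldin complex, and Trp53bp1 (0.18), which encodes the break-site protein 53BP1 and was named after its value was seen.

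Of 13 ADP-ribosyltransferase genes, the family of Parp3, 0 were lower and 2, Parp1 and Tnks2, were higher with groups apart, at a median of 0.12, and with size-factor scaling 0 were higher. The largest differences in that family, those of Parp16 (0.25), Parp9 (0.22) and Parp11 (0.18), were in genes whose groups overlapped. Of 15 Nudix hydrolase genes, 1, Nudt5 (-0.13), was lower and 2, Nudt21 (0.18) and Nudt1 (0.13), were higher, at a median of 0.09, and of these Nudt1 overlapped with size-factor scaling. Parp1, Tnks2, Nudt5 and, with the other scaling, Hmox2, Abhd5 and Abhd17a were also named after their values were seen. Of 4 genes of Kip1 ubiquitination, 1 was lower, the F-box gene Skp2 (-0.15), and Cdkn1b, which encodes p27 Kip1 itself, overlapped between the groups (0.07). None of 17 ABHD hydrolase genes had groups apart, at a median of 0.03, though with size-factor scaling Abhd5 and Abhd17a were lower (median -0.03), and neither did Gpd2 (0.08) or Gpd1 (-0.01), the glycerol 3-phosphate dehydrogenases.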

How the data were processed

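Nuclei from 6 striatal libraries (10x 3′ v3.1, per the labels' protocols) were processed with Cell Ranger and Seurat 4.1 on mm10/GRCm38, per the submitters' processing notes. Their filters and use of strand are not given in the sources used here. The deposited values are a score: whole numbers whose totals per nucleus vary by a CV of only 10.7%, and they were taken from this to have been corrected for depth before deposit, a step no source used here records. Count tests were not used. Nuclei were clustered with scikit-learn 1.9.0 and igraph 0.11.9 into 54 clusters on 2000 variable genes found with scanpy 1.11.5, and clusters were named from markers (at least 3). Nuclei of clusters left without a name, 798 to 1851 per library, entered the all-nuclei values but none of the classes described. 818 nuclei (1.68%) were left out as doublets by score or cluster, since Scrublet's own threshold marked 0.127% to 0.811% of a library. Values were averaged per library, and per library and class. Genes with a mean of at least 0.02 and a summed value averaging 30 or more per library were fitted as log2(mean + 0.01) with limma 3.58.1 (R 4.3.3), trended variance and Benjamini-Hochberg adjustment over all genes tested, and the fits were tested on simulated data. The members and lists were chosen with earlier results of these data known. Genes named are the 9, their 2 closest profiles, the 5 largest other differences in the window, overlapping or adjacent genes, and up to 3 per list, with exceptions marked in the text as named after their values were seen. The labels call the samples biological replicates, but p-values measure only the spread between these libraries. Alternatives were other pseudocounts, no filter, size factors, pooled class shares, doublets kept, the share of nuclei above 0, each replicate left out and a replicate block.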

Additional observations from a re-analysis of the deposited data

How the results depend on the processing

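The direction of the 9 genes under the alternatives is no sign of stability: they were picked for this contrast and their groups do not overlap, so leaving out 1 library cannot reverse it, and omitting the filter or adding the replicate block leaves the value as it is. The median absolute log2 difference of the 9 was 0.21 with a pseudocount of 0.1. Across alternatives the log2 difference ran from -1.26 to -0.85 for Rpl29, -0.70 to -0.42 for Aste1, -0.55 to -0.28 for Abhd14a, -0.30 to -0.14 for Manf, 0.15 to 0.68 for Parp3, 0.23 to 0.40 for Alas1, 0.11 to 0.43 for Nudt16, 0.21 to 0.38 for Rnf123 and 0.18 to 0.36 for Gpd1l. Except for Manf, whose value nearest 0 came from the share of nuclei above 0, the values nearest 0 came with the pseudocount of 0.1. The median of the 231 other genes around Celsr3 was 0.03 with pooled class shares and 0.04 with a pseudocount of 0.1. The number of genes called by limma was 0 under each alternative except the share of nuclei above 0, which called 1, Mid1, no member and named after its value was seen. With a replicate block it was 0; same-numbered libraries did not deviate together (r = -0.04, 0.15 and -0.07), so the numbers were not taken to pair them. Values of Parp3 and Nudt16 rest on few nuclei above 0, at most 3.79% and 3.94% per library.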
